A study of Mus musculus with 3 samples.

Results

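Protein kinase C (PKC) and protein kinase D (PKD) isoforms are the serine/threonine kinases through which much of the cell's diacylglycerol signal is read. The 8 genes described here are the conventional isoform (cPKC) Prkca, the calcium-independent isoforms (nPKCs) Prkcd, Prkce, Prkch and Prkcq, the atypical isoforms (aPKCs) Prkci and Prkcz, and the PKD gene Prkd3. They were taken by gene symbol, and all 14 of their probe sets were used, 8 genes of the 12393 named on the array. RNA was measured in C2C12, an established line of mouse myoblasts, the precursors of muscle fibres. One culture had been transfected with diacylglycerol kinase zeta (DGK-zeta), one with enhanced green fluorescent protein (EGFP), which controls for transfection, and one was untreated. All 3 carry the time label 12 h, transfection used the FuGene method on cells plated 18 h earlier, and neither the constructs' sequences nor the share of cells transfected is given in the sources used here. Each group had 1 array, so no difference has a replicate check, no test could be run and no p-values are given.

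Conventional PKCs need diacylglycerol and calcium, nPKCs need diacylglycerol without calcium, and atypical PKCs respond to neither and act with polarity scaffolds. PKDs bind diacylglycerol and are switched on by nPKCs. DGK-zeta turns diacylglycerol into phosphatidic acid and so removes the lipid that cPKCs, nPKCs and PKDs bind, which is why the transcripts of these kinases are of interest beside it. In skeletal muscle Prkcq, which encodes PKC-theta, is the isoform known for its prominence in differentiated fibres.

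Signals are MAS5 intensities on a linear scale. A probe set was counted as measured where its signal reached 107, the 50th percentile of all values pooled, and lower values were set to this floor before log2. Where 1 of the 2 arrays lay under the floor the ratio is a bound, written "at least". Dgkz itself, the check of the labels, had 13466 in DGK-zeta cells, 1053 in EGFP cells and 1500.1 in untreated cells by one probe set and 4315, 240.3 and 188 by the other, and whether these read the construct or the cells' own transcript is not known. Of 6 myoblast markers 5 were measured on each array, with summed signals of 4058, 3842 and 3650 in DGK-zeta, EGFP and untreated cells, while Myod1 was under the floor on all 3. The markers shared no direction: Myf5 had 2036, 1227 and 1058 in DGK-zeta, EGFP and untreated cells, while Des was 1.95-fold, Itga7 1.59-fold and Cdh15 1.54-fold lower in DGK-zeta than in EGFP cells. The median log2 ratio of the 5 markers was -0.62 against EGFP, with 3 below 0, and its part in the ratios below was not tested. None of 9 markers of leukocytes, epithelium, endothelium, adipocytes and neurons was measured on any array. Their highest signal was 42.5, none was listed at 0, and their summed signals were 109 in DGK-zeta cells, 112 in EGFP cells and 117 in untreated cells. The ratio of the 3′ to the 5′ control probe set of Actb was 2.55 on the DGK-zeta array, 1.43 on the EGFP array and 1.27 on the untreated array, while that of Gapdh was 0.931, 0.902 and 0.841. The part of this 3′ to 5′ difference in the ratios below was not tested.

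Every PKC and PKD class had at least 1 isoform whose signal reached the floor in these cells. Prkca, Prkcd, Prkci and Prkd3 were measured on all 3 arrays. Prkce was measured in DGK-zeta and EGFP cells. Prkch, Prkcq and Prkcz were under the floor on every array. By probe set, 6 of 14 were measured on all 3 arrays, 3 on 1 or 2 arrays and 5 on none. No measured probe set of the 8 genes was at least 2-fold apart by floored signals in any comparison. Of all measured probe sets 4.78% were between DGK-zeta and EGFP cells, 7.04% between DGK-zeta and untreated cells and 1.23% between EGFP and untreated cells. A ratio that is a bound may stand for a wider one, as for Prkd3 1420567_at, with 51.6 in DGK-zeta and 122 in untreated cells. In bulk RNA, fewer cells with a transcript and less of it per cell cannot be told apart.

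**Figure D1:**
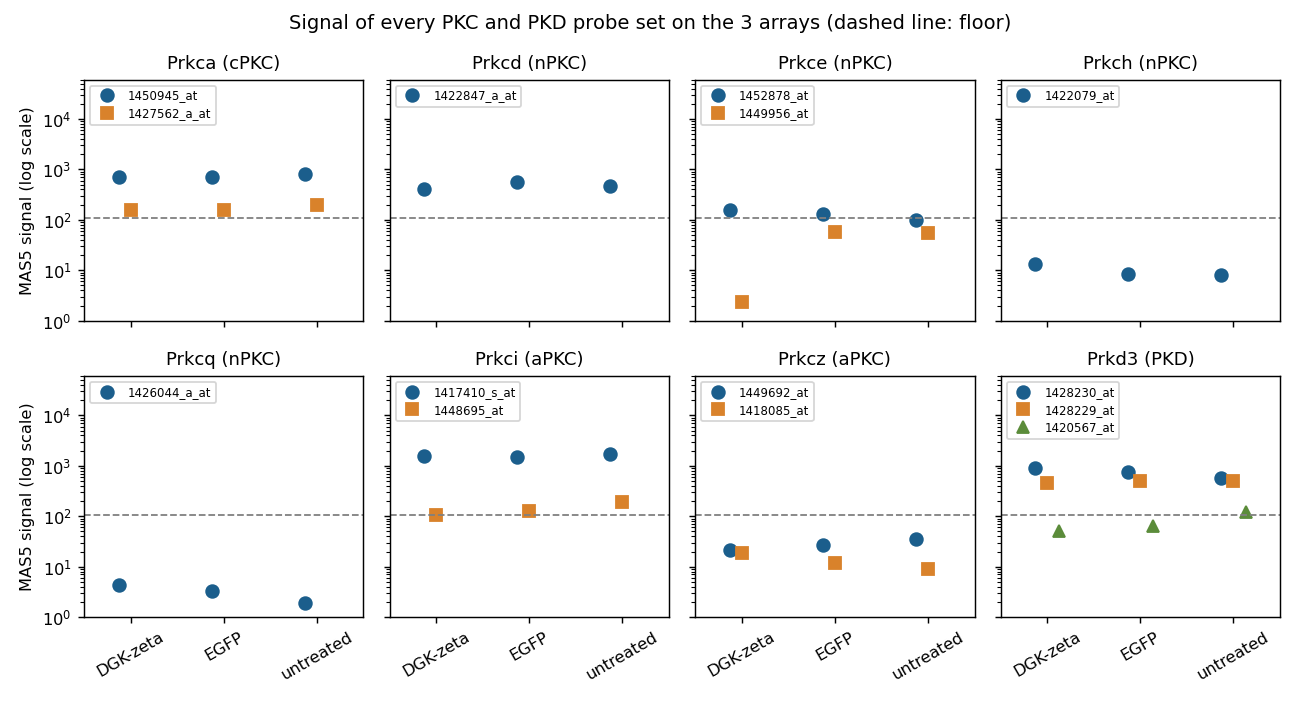
MAS5 signal (log axis) of each probe set of the 8 kinase genes in DGK-zeta, EGFP and untreated C2C12 cells, 1 array each, with 1 colour and shape per probe set and the floor of 107 as a dashed line. Prkca, Prkcd, Prkci and Prkd3 have a probe set above the floor on all 3 arrays, Prkce in DGK-zeta and EGFP cells, and Prkch, Prkcq and Prkcz on none.

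The start regions of these genes are shown because CpG-dense starts occurred both in measured members and in members under the floor. The sequences are 300-base windows from RefSeq, assembly GRCm38.p6, running from 250 bases before to 50 bases after an annotated start, 5′ to 3′ on the gene's strand. Capitals mark the GC box, searched as GGGCGG on both strands (CCGCCC on the other), with overlapping matches allowed. Windows were found for 6 of the 8 genes, 10 in all. Prkca (chr11:108343839-108344138, minus strand) and the upstream start of Prkd3 (chr17:79020767-79021066, minus strand) belong to measured genes, and Prkcq (chr2:11172132-11172431, plus strand) to a gene under the floor. The downstream start of Prkd3 (chr17:79008456-79008755, minus strand) is printed as the contrast within a gene.
Prkca: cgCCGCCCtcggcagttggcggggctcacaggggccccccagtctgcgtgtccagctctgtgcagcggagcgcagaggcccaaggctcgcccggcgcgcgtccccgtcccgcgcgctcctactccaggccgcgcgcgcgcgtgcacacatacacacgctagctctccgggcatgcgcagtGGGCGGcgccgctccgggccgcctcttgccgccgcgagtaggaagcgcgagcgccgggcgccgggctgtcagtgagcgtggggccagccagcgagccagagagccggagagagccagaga
Prkd3 upstream start: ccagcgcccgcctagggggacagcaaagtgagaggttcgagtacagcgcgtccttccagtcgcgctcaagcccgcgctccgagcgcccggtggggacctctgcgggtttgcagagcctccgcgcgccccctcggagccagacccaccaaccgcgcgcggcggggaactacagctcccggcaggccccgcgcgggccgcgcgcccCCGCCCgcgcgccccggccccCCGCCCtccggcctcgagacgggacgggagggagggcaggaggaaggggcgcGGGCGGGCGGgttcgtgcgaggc
Prkd3 downstream start: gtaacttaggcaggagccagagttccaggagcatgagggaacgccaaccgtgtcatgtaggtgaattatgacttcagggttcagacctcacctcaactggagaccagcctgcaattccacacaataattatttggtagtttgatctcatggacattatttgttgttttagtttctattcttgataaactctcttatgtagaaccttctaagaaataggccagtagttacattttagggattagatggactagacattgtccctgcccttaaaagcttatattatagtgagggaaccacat
Prkcq: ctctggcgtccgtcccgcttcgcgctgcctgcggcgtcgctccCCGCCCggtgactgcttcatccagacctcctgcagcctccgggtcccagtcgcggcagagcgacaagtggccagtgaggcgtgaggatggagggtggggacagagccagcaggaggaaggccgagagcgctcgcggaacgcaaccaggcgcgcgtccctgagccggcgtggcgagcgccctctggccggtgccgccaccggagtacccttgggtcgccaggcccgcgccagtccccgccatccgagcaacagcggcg

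The Prkca window held 42 CpG dinucleotides, the upstream Prkd3 window 45 and the Prkcq window 37, against a median of 7 over all 32851 windows of that length. Only 3.03%, 1.93% and 5.58% of all windows held as many. The downstream Prkd3 window held 2 CpGs and no GC box. Of the first-listed windows, that of Prkcz, also under the floor, held 31 CpGs, while those of the measured genes Prkcd and Prkci held 26 and 22. Dense CpG starts were thus present both in genes that were measured and in genes that were not. The GC box was present in 7 of the 10 windows, against 35.7% of all windows. The TPA response element is the AP-1 site classically tied to phorbol ester and PKC signalling. Searched as TGACTCA on both strands, it was in 0 of the 10 windows, against 5.20% of all windows. At that share a count of 0 does not set these windows apart. The 10 windows belong to 6 genes, so for both motifs they are not independent. A match describes letters in a window and does not show a bound factor, and a missing match says only that these letters are not in the window.

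Prkca encodes PKC-alpha, the conventional isoform, and had nearly the same signal in DGK-zeta and EGFP cells. Its probe set 1450945_at gave 716 in DGK-zeta cells, 717 in EGFP cells and 812 in untreated cells. The other, 1427562_a_at, gave 157, 155 and 199.95 in the same order. Both put the untreated array highest and the transfected arrays level with each other. The log2 ratios of DGK-zeta to EGFP were -0.0014 and 0.02, and those of DGK-zeta to untreated were -0.18 and -0.35. EGFP against untreated gave -0.18 and -0.37, so the difference from untreated cells was of like size in both transfected cultures, which share the untreated array. Rescaling the arrays to 1 median over all named probe sets (median scaling) put the median log2 ratio of all measured probe sets at 0.30 against EGFP in place of -0.05, and at 0.20 against untreated in place of -0.05. Prkca was then at 0.36 against EGFP and 0.08 against untreated, so its sign rests on the scaling.

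The nPKCs held 2 measured genes whose order on the arrays differed. Prkcd encodes PKC-delta, an isoform known for roles in apoptosis and growth arrest. Its 1 probe set had 413 in DGK-zeta cells, 555 in EGFP cells and 473 in untreated cells, with the DGK-zeta array lowest and the EGFP array highest. It was 1.34-fold lower in DGK-zeta than in EGFP cells, a log2 ratio of -0.43. This was the lowest floored ratio of the members against EGFP, and 21.4% of all measured probe sets were lower still. Against untreated cells it was at -0.20, and at 0.07 with median scaling, beside 0.20 over all measured probe sets. Under the 3 other scalings it stayed below 0 against EGFP, between -0.32 and -0.06.

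Prkce encodes PKC-epsilon, which is known to associate with actin. Its probe set 1452878_at had 156 in DGK-zeta cells, 131 in EGFP cells and 98.8 in untreated cells, close to the floor throughout. It was 1.19-fold higher in DGK-zeta than in EGFP cells (log2 ratio 0.25) and at least 1.46-fold higher than in untreated ones. Its second probe set, 1449956_at, was under the floor on all 3 arrays, with 2.37 in DGK-zeta cells, 57.1 in EGFP cells and 53.8 in untreated cells, and so gives no direction. The values of Prkce thus rest on 1 probe set. Prkch, which encodes PKC-eta, had 13.3, 8.60 and 8.03 in DGK-zeta, EGFP and untreated cells. Prkcq had 4.43, 3.29 and 1.91. Both were far under the floor, where the order of the arrays carries no reading.

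The atypical isoforms were split between a measured and an unmeasured gene. Prkci encodes PKC-iota (also called PKC-lambda in mouse), the kinase of the Par3 and Par6 polarity complex. Its probe set 1417410_s_at had 1587 in DGK-zeta cells, 1502 in EGFP cells and 1745 in untreated cells. Its log2 ratios were 0.08 over EGFP and -0.14 over untreated cells. The second probe set, 1448695_at, which the platform annotation ties to the same source sequence, had 104 in DGK-zeta cells, 128 in EGFP cells and 191 in untreated cells. It was lowest in DGK-zeta, intermediate in EGFP and highest in untreated cells. It was at least 1.20-fold lower in DGK-zeta than in EGFP cells and at least 1.78-fold lower than in untreated cells. This was the widest floored ratio of any member, and bounds of other members may stand for wider ones. Only 7.53% of measured probe sets lay lower in that comparison. Both probe sets put untreated cells highest, but with median scaling 1417410_s_at was at 0.13 against untreated, beside 0.20 over all measured probe sets. Prkcz, which encodes PKC-zeta, was under the floor by both probe sets. Its 1449692_at had 21.6, 27.1 and 36.1 in DGK-zeta, EGFP and untreated cells and its 1418085_at had 18.3, 11.9 and 8.86, and neither order carries a reading under the floor.

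Prkd3 encodes PKD3, a kinase downstream of diacylglycerol and nPKCs. Its 3 probe sets gave 3 patterns. Probe set 1428230_at had 912 in DGK-zeta cells, 745 in EGFP cells and 561 in untreated cells. It was 1.22-fold higher in DGK-zeta than in EGFP cells (log2 ratio 0.29) and 1.62-fold higher than in untreated cells (log2 ratio 0.70). These were the highest floored ratios of the members in both comparisons, with 82.0% and 94.7% of all measured probe sets below them. Probe set 1428229_at, which the annotation ties to the same source sequence, had 466, 511 and 490 in DGK-zeta, EGFP and untreated cells, so that the 3 arrays were nearly level. Its log2 ratios were -0.13 over EGFP and -0.07 over untreated cells. Probe set 1420567_at had 51.6 in DGK-zeta cells, 62.9 in EGFP cells and 122 in untreated cells, where alone it reached the floor. It was at least 1.14-fold lower in each transfected culture than in untreated cells. With the mean over the 3 probe sets the Prkd3 log2 ratio against untreated was at most 0.15 in place of 0.70, because 1420567_at enters it as a bound. The same mean against EGFP was 0.05, but there 1420567_at was under the floor on both arrays and enters as no difference.

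**Figure D2:**
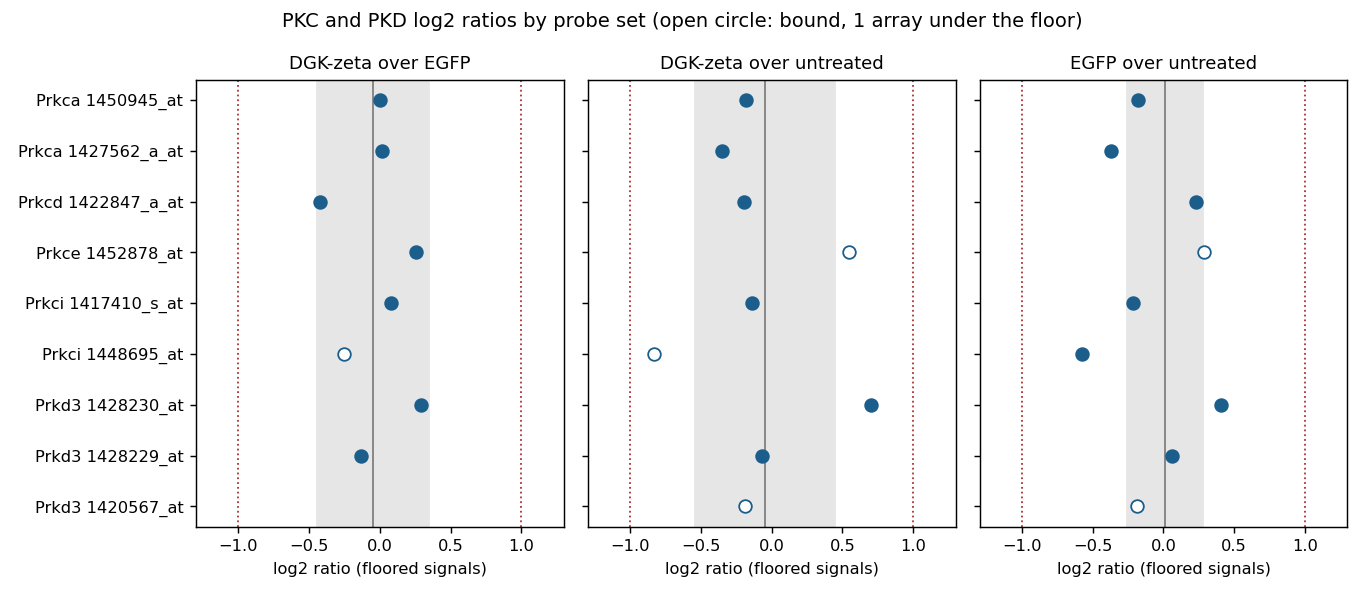
Log2 ratio of floored signals (x axis) for the 9 member probe sets measured on at least 1 array (y axis), 1 panel per comparison. Filled circles have both arrays at or above the floor, open circles are bounds, the grey line and band are the median of all measured probe sets and 1 SD of a single probe set on each side, and dotted lines mark 2-fold. No circle reaches a dotted line, and the 8 circles of the comparison with EGFP lie within the band.

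Compared with EGFP, the comparison in which both cultures were transfected, 8 member probe sets of 5 genes were measured, and none was at least 2-fold apart. Over all 10866 measured probe sets 4.78% were, 0.497% higher and 4.28% lower in DGK-zeta cells, so a share at this background would be under 1 of 8 probe sets and the count does not set the kinases apart from other genes. Of the 8 ratios 4 were above 0 and 4 below. Their median was 0.0074, beside -0.05 over all measured probe sets, and they spanned -0.43 to 0.29. How far probes of 1 gene disagree was estimated from 2245 genes whose 2 brightest sets were measured on all 3 arrays, which gave a log2 SD per probe set of 0.40 for DGK-zeta against EGFP. All 8 measured member probe sets, of 5 genes, lay within 1 such SD of the median of all probe sets, where 65.2% of all probe sets lay. This SD covers different probes on 1 RNA extract and not the spread between cultures.

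Compared with untreated cells, which joins the kinase with transfection, 9 member probe sets were measured and again 0 were at least 2-fold apart, against 7.04% of all probe sets (1.84% higher and 5.21% lower). Of the 9 ratios 7 were below 0, their median was -0.18 beside -0.05 over all measured probe sets, and they spanned -0.83, a bound, to 0.70. Median scaling put the median of the members at 0.08 and that of all measured probe sets at 0.20. Within 1 SD of a single probe set, 0.50 here, lay 6 of the 9 member probe sets and 71.9% of all probe sets. The 3 outside it were Prkci 1448695_at on the low side and Prkce 1452878_at and Prkd3 1428230_at on the high side.

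Transfection alone, EGFP against untreated cells, left 0 of 9 member probe sets at least 2-fold apart, against 1.23% of all probe sets (0.447% higher and 0.785% lower). Prkd3 1428230_at was 1.33-fold higher in EGFP cells, Prkci 1448695_at was 1.49-fold lower and Prkca 1427562_a_at 1.29-fold lower. The median of the members was -0.18, beside 0.01 over all measured probe sets. Within 1 SD of a single probe set, 0.27 here, lay 5 of the 9 member probe sets and 66.4% of all. The DGK-zeta and EGFP comparisons with untreated cells share the untreated array, so like ratios in both are not separate observations. For Prkd3 1428230_at they were 0.70 in DGK-zeta and 0.41 in EGFP cells, for Prkci 1448695_at a bound of -0.83 in DGK-zeta and -0.58 in EGFP cells, and for Prkcd -0.20 in DGK-zeta and 0.23 in EGFP cells.

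Probe sets of the same kinase gene disagreed by amounts usual for these arrays in most cases. The difference between 2 probe sets of a gene had an SD of 0.56 against EGFP, 0.70 in DGK-zeta against untreated cells and 0.38 in EGFP against untreated cells. The log2 ratios of the 2 Prkca probe sets differed by 0.02, 0.17 and 0.19 in these 3 comparisons. Those of Prkci differed by 0.34, 0.70 and 0.36, where the first 2 rest on a bound. Those of Prkd3 differed by 0.42 over 2 probe sets against EGFP. Over 3 probe sets against untreated cells they spanned at least 0.89 in DGK-zeta and at least 0.60 in EGFP cells, more than 1 SD of a pair. The low end of both spans is a bound, and a span over 3 probe sets is not the difference of a pair.

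Related kinases were not measured either. Prkcb, Prkd1 and Prkd2 were under the floor on all 3 arrays by each of their probe sets. Their signals by the brightest probe set were 35.5, 46.0 and 17.9 for Prkcb, 19.8, 9.13 and 1.48 for Prkd1, and 48.4, 73.5 and 64.5 for Prkd2 in DGK-zeta, EGFP and untreated cells. Prkd3 was thus the 1 PKD gene measured in these cells.

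The genes that make PKCs competent to act were spread around 0. PKCs are primed by the kinase PDK1 (gene Pdpk1) and by the mTORC2 complex with HSP90 and CDC37, and are switched off by PHLPP phosphatases. Of 11 listed genes 7 were measured, 0 were at least 2-fold apart against EGFP (3.19% of all 6926 measured genes, 0.347% higher and 2.84% lower) or against untreated cells (4.14% of 6866, 1.34% higher), and 4 of 7 were above 0 in each. Their median log2 ratio was 0.28 over EGFP and 0.22 over untreated cells, beside -0.02 over all measured genes in both. Hsp90aa1 had 11875 in DGK-zeta cells, 9552 in EGFP cells and 8458 in untreated cells by its brightest probe set, a log2 ratio of 0.31 against EGFP. Its other probe sets gave 0.02 and -0.50 against EGFP, and 0.03 and -1.24 against untreated cells, with no shared direction. Pdpk1, named after its values were seen, had 998.8, 539 and 580 in DGK-zeta, EGFP and untreated cells by its brightest probe set, 1.85-fold higher than in EGFP cells, but 49.97, 312 and 306 by the other, at least 2.92-fold lower. Its probe sets pointed in opposite directions on the DGK-zeta array and were level between EGFP and untreated cells.

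Phospholipases C, which make diacylglycerol from phosphoinositides, were measured for 3 of 13 listed genes, with 0 at least 2-fold apart. Over all measured genes 3.19% were against EGFP and 4.14% against untreated cells. Plcb3, coupled to Gq receptors, had 370 in DGK-zeta cells, 408 in EGFP cells and 273 in untreated cells. The median log2 ratio of the 3 genes was -0.14 against EGFP and 0.38 against untreated, beside -0.02 over all measured genes in both. Scaffolds and binding partners of PKC were measured for 10 of 16 listed genes against EGFP and 11 against untreated. Again 0 were at least 2-fold apart, and the medians were -0.26 and -0.15, beside the same -0.02. At the shares over all genes, counts of 0 do not set either list apart from other genes. Sqstm1, the p62 scaffold that binds atypical PKCs, had 6494 in DGK-zeta cells, 8242 in EGFP cells and 7536 in untreated cells. Other diacylglycerol receptors, the RasGRP, chimaerin and Munc13 genes, were nearly all under the floor. Chn1 alone reached it, and in EGFP cells only, with 72.2 in DGK-zeta cells, 118 in EGFP cells and 68.7 in untreated cells.

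Substrates of PKC and PKD held the 2 genes of these lists that were at least 2-fold apart by their brightest probe set. Of 22 listed genes 13 were measured. Against EGFP 0 were apart, beside 3.19% of all measured genes. Against untreated cells 2 were lower, where 2.80% of all measured genes were lower. Hdac7, a class IIa histone deacetylase that PKD phosphorylates, had 269 in DGK-zeta cells, 516 in EGFP cells and 598 in untreated cells, 2.22-fold lower than in untreated cells. Its other probe set had 89.5, 183 and 211, the same order, and was at least 1.97-fold lower. Gsk3b, a kinase that PKC can phosphorylate, had 210.02 in DGK-zeta cells, 333 in EGFP cells and 444 in untreated cells, 2.12-fold lower than in untreated cells. Neither gene was 2-fold lower after quantile normalization or median scaling. Cttn, the actin regulator cortactin, had 5458 in DGK-zeta cells, 3582 in EGFP cells and 3955 in untreated cells by its brightest probe set, a log2 ratio of 0.61 against EGFP. Its other measured probe sets gave 0.41, -0.67 and -1.04 against EGFP, so they shared no direction. Over the list the log2 ratios had a median of -0.10 over EGFP and of -0.33 over untreated cells, beside -0.02 over all measured genes in both. Marcks, the classical PKC substrate, named after its values were seen, had 3324 in DGK-zeta cells, 2579 in EGFP cells and 2509 in untreated cells by its brightest probe set. The log2 ratios of its 6 probe sets against EGFP ran from -0.74 to 0.66, so this gene had no common direction. Median scaling put the list medians over EGFP at 0.64 for priming factors, 0.22 for phospholipases C, 0.10 for scaffolds and 0.27 for substrates. It moved the median of all measured probe sets from -0.05 to 0.30. The sign of the 3 list medians that were negative over EGFP thus rests on the scaling. With and without median scaling these 3 lay below the median of all measured probe sets. The lists count 1 probe set per gene, and over all measured genes the median without that scaling was -0.02. With median scaling the median over all genes was not computed.

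**Figure D3:**
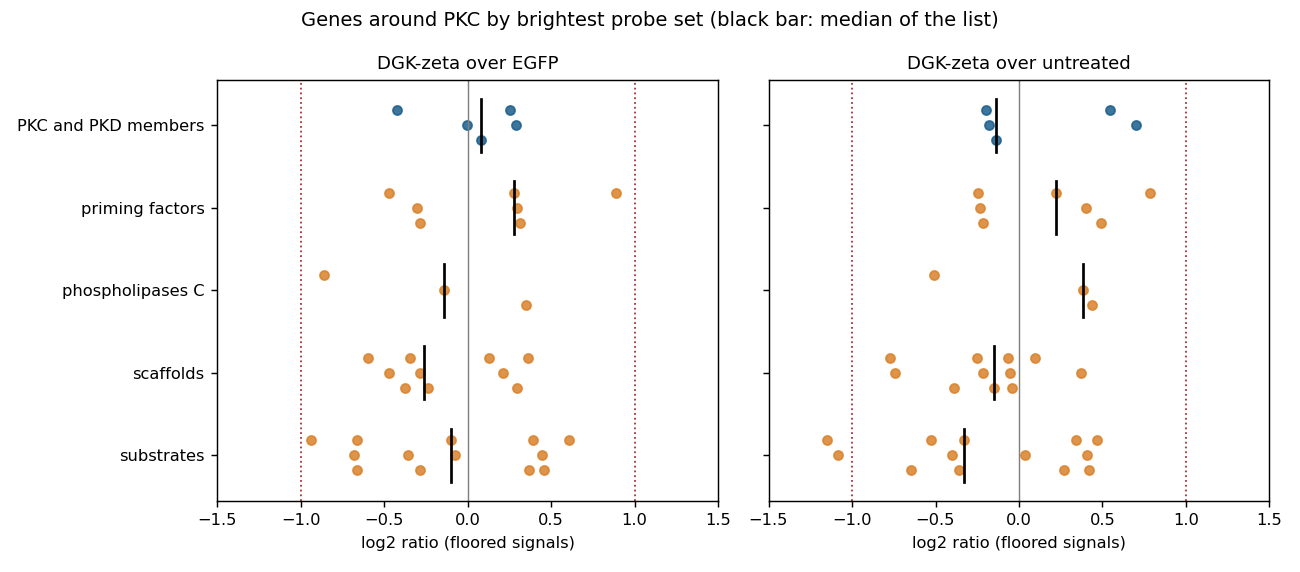
Log2 ratio of floored signals (x axis) of DGK-zeta over EGFP cells and of DGK-zeta over untreated cells, 1 point per gene by its brightest probe set, for the kinase genes and for 4 lists of genes around them (y axis). Black bars are list medians and dotted lines mark 2-fold. Hdac7 and Gsk3b, both in the substrate list, are the points past a dotted line, in the comparison with untreated cells.

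The genes whose pattern lay nearest to that of Prkci, the member with the brightest probe set, were Inafm2, Smc4 and Rufy1, measured as the distance in the log2 ratios of DGK-zeta to EGFP and of EGFP to untreated over the 3 arrays. Their distances were 0.011, 0.012 and 0.013 on the log2 scale. Of the 6433 genes measured on all 3 arrays 283 lay within 0.1 of Prkci, so nearness over 3 arrays is common.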

How the data were processed

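RNA of C2C12 cells (DGK-zeta-transfected, EGFP-transfected, untreated; 1 array each) was biotin-labelled after an Affymetrix one-cycle protocol, per the labels' protocols. The authors deposited 1 intensity per probe set, linear in scale. Per the submitters' processing notes they used MAS5. Its version, scaling target and detection calls were not given in the sources used here. The mean between the 2nd and 98th percentile was 499.95 on every array, so no further scaling was applied. Of 22690 probe sets 20380 have 1 gene symbol in the platform annotation, and symbols of 20351 were looked up by gene ID in RefSeq (GRCm38.p6). A gene was represented by its brightest probe set. Groups were compared by size only, with a 2-fold rule after flooring, and the number of arrays limits the precision. Genes named are every member probe set, related kinases, and in each list the genes at least 2-fold apart and the brightest one, besides those the text marks as picked once values were known. The members and lists were chosen with earlier results of these data known. Alternatives were 3 scalings, a lower (25th percentile) and a higher (75th percentile) floor, none at all, a pseudocount of 3.17 instead, rules of 1.5-fold and 3-fold, the mean over probe sets, and leaving out suffixes _x_at and _s_at. The counting was tested on simulated data with larger changes in bright probe sets only, so that test does not cover 2-fold calls near the floor. Python 3.11.15, numpy 2.4.6, pandas 2.3.3 and matplotlib 3.10.9 were used.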

Additional observations from a re-analysis of the deposited data

How the results depend on the processing

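With 1 array per group the limits are the missing replicates, the scaling and the floor. No paired analysis was possible because no group has a second array. The count of member probe sets at least 2-fold apart was 0 in each comparison and stayed 0 under the 3 scalings. The floor at the 75th percentile, the 3-fold rule and leaving out suffixes _x_at and _s_at can only lower a count. Their 0 was fixed in advance. Settings that admit dim signals gave more. Against EGFP the floor at the 25th percentile gave 1 of 12, and no floor and the pseudocount gave 1 of 14 each (Prkce 1449956_at, lower). Against untreated these settings gave 2 of 12, 4 of 14 and 2 of 14, and the 1.5-fold rule gave 2 of 9. The share over all probe sets was not computed for these settings, so these counts have no background beside them. In EGFP against untreated cells the count stayed 0 under every alternative. The median of the members moved by less than 1 SD of a single probe set in all 21 alternatives, and 112 of 114 single-member values did. The exceptions were Prkd3 by the mean over probe sets, at most 0.15 in DGK-zeta and at most 0.09 in EGFP cells against untreated. That SD is wider than the medians themselves, so a move within it can change a sign. Many of the 114 values could not move, because a lower floor or none leaves a ratio of measured signals unchanged. Prkcd against EGFP was -0.43 in the main setting, with the lower floor, with no floor and by the mean over its 1 probe set. The tally of 112 is thus in part built into the settings. Median scaling took the median of the members from 0.0074 to 0.37 against EGFP and from -0.18 to 0.08 against untreated. The medians of all measured probe sets were then 0.30 and 0.20. Among genes of the 6 lists, whose alternative settings were added after seeing the data, 0 were 2-fold apart against EGFP, but 1 with median scaling over all named probe sets (Pdpk1), 4 with the lower floor, 13 with no floor, 8 with the pseudocount and 8 at 1.5-fold. Against untreated the count of 2 became 0 with quantile normalization, the higher floor and the 3-fold rule, 1 with each equal-median scaling (Pdpk1 higher with all named probe sets, Hdac7 lower with measured ones), 4 with the lower floor, 12 with no floor, 9 with the pseudocount and 6 at 1.5-fold. In EGFP against untreated cells the count of 0 became 2, 10, 9 and 1 with the lower floor, no floor, the pseudocount and the 1.5-fold rule. The list genes counted as measured also rose, against EGFP from 34 to 50 with the lower floor and 58 with no floor or the pseudocount. The share over all genes was not computed for the alternative settings, so these list counts have no background beside them.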

Other observations

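Gja1, the gap junction protein connexin 43 and a PKC substrate, was looked at after its values were seen because it has 6 probe sets. By the brightest it had 4887 in DGK-zeta cells, 3557 in EGFP cells and 3653 in untreated cells. Against EGFP the log2 ratio was above 0 for 4 probe sets, between 0.20 and 0.66. It was below 0 for the others, at -0.31 for 1438973_x_at and at most -0.75 for 1415801_at, which had 58.1 in DGK-zeta cells, 180.4 in EGFP cells and 232 in untreated cells.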
